A study of Rattus norvegicus with 17 samples.

Results

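Atf3 and Jun encode transcription factors that are widely used as markers of the injured neuron, and their levels were described here across spinal cord neurons of the rat. The members were the probe sets whose single gene symbol was Atf3 or Jun. They are 2 of 14217 genes with such a probe set on the array. They had 4 of its 31099 probe sets, 1 for Atf3 and 3 for Jun, and all 4 were bright enough to be tested. A probe set is a group of short array probes for the same transcript, and its value is a signal intensity in arbitrary units. The 17 arrays came from 17 samples, each of 1000 spinal cord neurons that had been marked by a retrograde tracer and cut out by laser. Regenerating neurons (7 samples) and Non-regenerating neurons (7 samples) were both axotomised and came from the same 7 rats. Traced neurons (3 samples) carried the tracer but had no axotomy and came from 3 other rats. The rats are named MM or MOON with a number, and strain, age, sex, lesion and time after injury are not given in the sources used here. The axotomised rats were 5 MM and 2 MOON animals, and all Traced rats were MM animals. The array of Traced MM15 is labelled as a high yield replicate.

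ATF3 belongs to the ATF/CREB family of basic leucine zipper proteins, which bind DNA as dimers. It is scarce in most uninjured neurons and is strongly induced when the axon is cut, so that it serves as a histological marker of axotomy. c-Jun, the product of Jun, is the main subunit of the dimeric factor AP-1 and pairs with Fos proteins or with ATF3. It is phosphorylated by the JNK kinases, which the kinase DLK activates after axon injury, and in peripheral nerve injury c-Jun and ATF3 are both tied to axon regrowth.

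Every array had been scaled to nearly the same mean, but the median signal ranged from 32.8 to 76.9. It was below 40 on the 4 MOON arrays and above 45 on all MM arrays. By group it was 32.8 to 60.6 in Regenerating, 33.9 to 76.9 in Non-regenerating and 63.7 to 76 in Traced samples, so that the Regenerating and the Traced arrays did not overlap. The log2 ratio of the 3 prime to the 5 prime Gapdh control, which is larger where RNA or its copies are shorter, was 5.01 to 6.3 in Regenerating, 3.32 to 7.23 in Non-regenerating and 3.55 to 5.23 in Traced samples. The arrays of Non-regenerating MM17 and Traced MM15 correlated least with the others, with median r of 0.847 and 0.821. All 10 general neuron markers were bright enough to be tested. Their summed signal was 18930 to 33150 in Regenerating, 17400 to 52280 in Non-regenerating and 23390 to 53330 in Traced samples. Markers of glia were bright as well. In bulk samples, fewer cells of a type and less RNA per cell cannot be told apart. Precision is limited by the number of arrays. Tests against Traced samples rest on the spread between rats, and tests within rats on the spread of the within-rat differences. In both, spread from the arrays and from the rats cannot be told apart.

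Atf3 was high in axotomised neurons and low in neurons without axotomy, in 6 of the 7 injured rats. Its signal had a lowest value of 136.4, a median of 489.7 and a highest value of 1359.3 in Regenerating samples. In Non-regenerating samples these values were 123.3, 572.3 and 830.8. The 3 Traced samples had 33.3, 113.8 and 150.2. Both lowest values of the axotomised groups belonged to rat MM16, and they were the only axotomised values within the range of the Traced samples. The other 12 axotomised arrays had at least 330.7, which is above every Traced array.

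Group means of Atf3 followed the order Regenerating, Non-regenerating, Traced, at 721 ± 483, 556 ± 232 and 99.1 ± 59.8 (SD, n = 7, 7 and 3). The first of these groups did not differ from its neighbour beyond the spread, while both lay far above the Traced group. The spread among Regenerating samples, at 67.0% of the mean, was wider than that among Non-regenerating samples, at 41.8%, and this difference was not tested. Ranked against all other probe sets of its array, Atf3 stood at the 67.8th to 94.9th percentile in Regenerating and at the 63.2nd to 91.7th in Non-regenerating samples. In Traced samples it stood at the 34.0th to 69.2nd percentile.

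**Figure D1:**
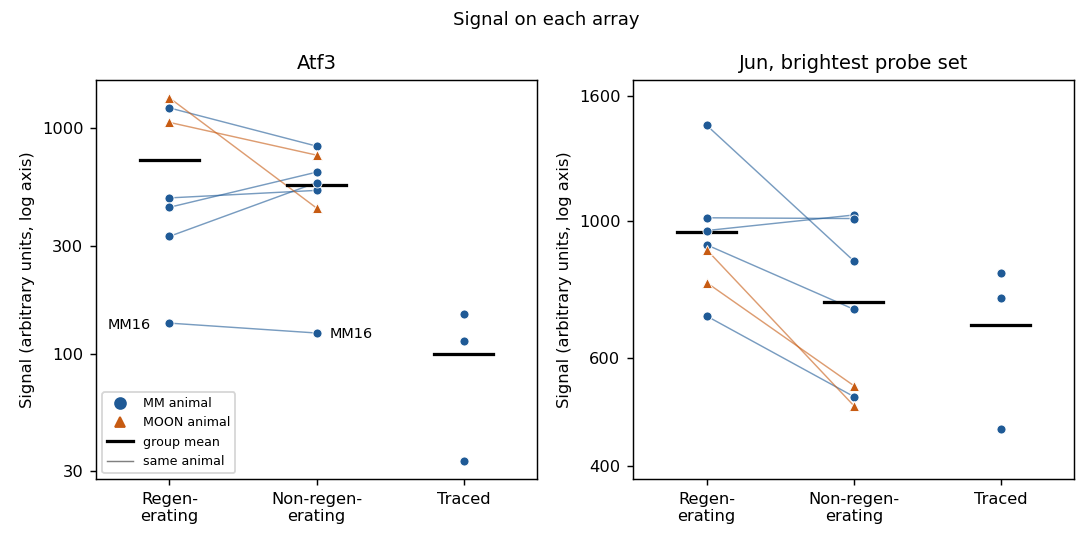
Signal of Atf3 and of the brightest Jun probe set (log axes) on each array of the Regenerating, Non-regenerating and Traced groups, with lines joining samples of the same rat and bars at group means. Atf3 of rat MM16 (136.4 and 123.3) lies among the Traced values of 33.3 to 150.2, whereas the Jun groups overlap.

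At its brightest probe set, Jun had a high signal in every group, including neurons without axotomy. Of its 3 probe sets, here called the brightest, the intermediate and the dim, the brightest had a lowest signal of 701, a median of 915.5 and a highest of 1433.1 in Regenerating samples. In Non-regenerating samples these were 501, 719 and 1023.8. The Traced samples had 459.6, 750.6 and 822.7. All 3 groups overlapped, and this probe set lay between the 86.7th and the 96.1st percentile on all 17 arrays. The intermediate one lay between the 64.2nd and the 81.3rd, and the dim one between the 29.3rd and the 51.8th. Group means of the brightest were 960 ± 233, 739 ± 229 and 678 ± 192 (SD, n = 7, 7 and 3), in the same order as for Atf3, and neighbours in that order differed by less than 1 SD.

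The comparison of Non-regenerating with Traced neurons, made between rats, asks which genes go with axotomy. Atf3 was 4.98-fold higher in Non-regenerating neurons, with a log2 fold change of 2.32 (SE 0.50, 95% interval 1.25 to 3.38). Fold changes here are on the scale of log2(signal + 16), which understates changes of dim probe sets. Over all 18625 tested probe sets Atf3 did not pass, with an adjusted p of 0.203 in limma, a threshold that 0.043% of probe sets passed with a higher and 0.0% with a lower signal. By size it was the third of all tested probe sets, and only 0.0161% reached its fold change. By limma p it ranked 31st. In a two-sided exact permutation test of this value p was 0.0167, which 1.14% of probe sets reached with a higher signal, and 0.125 after adjustment over the 12 tests made on the 4 member probe sets. Of the 7 Non-regenerating samples 6 lay above all 3 Traced samples, as 4.32% of all probe sets did in at least 6. Without Non-regenerating MM16, the lowest Atf3 value of its group, the log2 fold change was 2.63 and passed (adjusted p = 0.0227 in limma). Leaving out the lowest value raises the estimate by itself. With array weights it was 2.39 and passed (adjusted p = 0.0058), as did 553 probe sets with a higher and 1887 with a lower signal. Atf3 passed in only these 2 of 23 other settings, over which the adjusted p ranged from 0.0058 to 0.652. With the Gapdh ratio as a covariate the log2 fold change was 2.07 (adjusted p = 0.63 in limma).

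No such difference was seen for Jun, and 29.2% of all probe sets had a fold change at least as large as its own. Its brightest probe set differed by 0.11 (SE 0.29, 95% interval -0.51 to 0.72, adjusted p = 0.907 in limma), and the exact permutation p was 0.733. The interval reaches to 0.72, so a modest increase could not be detected with these arrays. Of the Non-regenerating samples, 3 of 7 lay above all Traced samples. Without Traced MM15 the difference turned to -0.14. Relative to the median of all tested probe sets, Jun stood at 0.23 as deposited and at 0.00 after quantile normalization.

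The comparison of Regenerating with Traced neurons shares the same 3 Traced arrays. Atf3 was 5.70-fold higher in Regenerating neurons (log2 fold change 2.51, SE 0.60, 95% interval 1.23 to 3.79, adjusted p = 0.0684 in limma). It was again the third by size, with 0.0161% of probe sets at or above it, and after adjustment 0.156% were past the threshold with a higher and 0.0591% with a lower signal. The exact permutation p was 0.025, which 3.48% of probe sets reached with a higher signal, and 0.125 adjusted over the 12 tests. Again 6 of 7 samples lay above all Traced samples, with MM16 the exception, and 5.62% of probe sets had at least 6. Atf3 passed in 5 of 23 other settings, with adjusted p from 0.0156 to 0.762. The highest adjusted p came with the Gapdh ratio as a covariate, where the log2 fold change was 2.38. The settings in which Atf3 passed were an offset of 64 (2.06), each array centred on its median (2.90), array weights (1.99) and the fits without Regenerating MM16 (2.83) or MM17 (2.57). Many other probe sets passed in some of these settings. After centring 279 were higher and 50 lower, with array weights 860 and 2271, and without MM17 the total was 1504.

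Jun was 1.42-fold higher in Regenerating than in Traced neurons, which did not pass (log2 fold change 0.50, SE 0.25, 95% interval -0.03 to 1.04, adjusted p = 0.242 in limma). Its exact permutation p was 0.075, and 0.18 adjusted over the 12 tests. The samples above all Traced samples were 5 of 7, and 11% of all probe sets had a fold change at least as large. Without Traced MM15 it was 0.25, and with any other array left out it was 0.40 to 0.66.

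**Figure D2:**
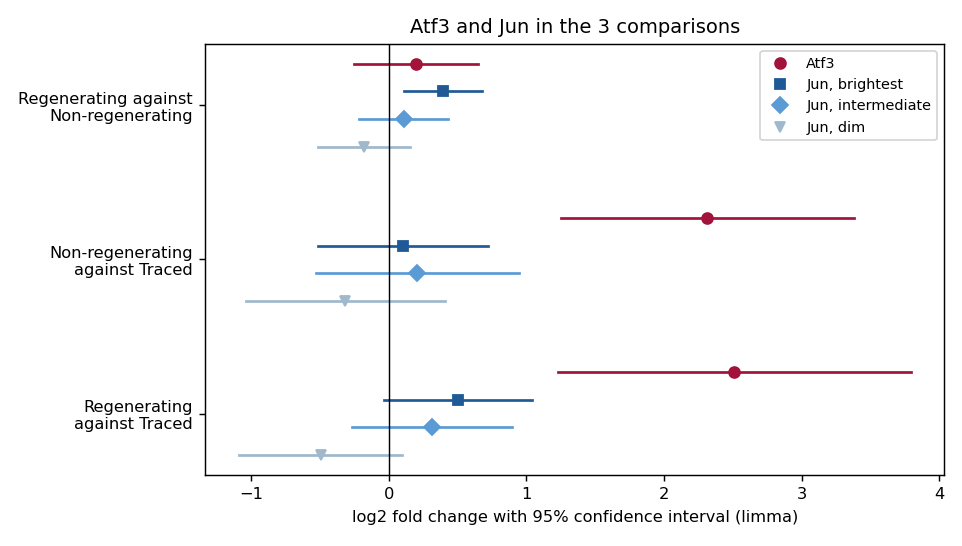
Log2 fold change (x axis) with its 95% confidence interval from limma for Atf3 and the 3 Jun probe sets in each comparison. Both intervals of Atf3 against Traced samples start above 1.2, and those of Jun against Traced samples span 0.

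By these estimates Atf3 differed more than Jun from the neurons without axotomy. The log2 signal of Atf3 minus that of Jun was taken on each array, which sets no level of 1 probe set against the other but asks whether they moved alike. The difference was larger by 2.21 in Non-regenerating than in Traced samples, and 6 of 7 samples lay above all Traced ones (exact permutation p = 0.0167, adjusted p = 0.0375 over the 3 comparisons). It was larger by 2.01 in Regenerating than in Traced samples, again with 6 of 7 above (exact permutation p = 0.025, adjusted p = 0.0375). Both calls share the Traced arrays. Their exact permutation p-values equal those of Atf3 alone, which were 0.125 when adjusted over the 12 member tests, so they add little to the Atf3 result. The test was chosen with earlier results known, and the share of other probe sets that would pass it was not computed. The Non-regenerating call ended without Traced MM18 (1.59) or MM19 (2.40) and with an offset of 64 (1.77). The Regenerating call ended with that offset (1.58), without Traced MM18 (1.39) or MM19 (2.20), and without any of the Regenerating samples MM11, MM13, MM14, MM17, MOON265 and MOON266 (1.79 to 2.15).

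Regenerating and Non-regenerating neurons were set against each other within rats, to ask which genes go with regeneration. Atf3 had no shared direction. In rat MM11 its signal was 489.7 in Regenerating and 528.8 in Non-regenerating neurons, in MM13 330.7 and 572.3, and in MM17 445 and 637. Those 3 rats had less Atf3 in the Regenerating neurons. In MM14 the signals were 1227.1 in Regenerating and 830.8 in Non-regenerating neurons, and in MM16 they were 136.4 and 123.3. In MOON265 they were 1359.3 and 441.5, a 3.01-fold difference, and in MOON266 they were 1058.5 and 757.9. Over the 7 rats the log2 fold change was 0.20 (SE 0.21, 95% interval -0.25 to 0.65, adjusted p = 0.837 in limma, exact sign-flip p = 0.594). Atf3 was higher in 4 of 7 rats, as 48.4% of all probe sets were in at least 4, and 17.4% had a fold change at least as large. MOON265 decided the sign of the mean, which was -0.04 without it.

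The brightest Jun probe set was higher in the Regenerating neurons of 5 of 7 rats by at least 0.34 on the log2 scale. The within-rat log2 differences were 0.82 in MOON265, 0.72 in MM14, 0.54 in MOON266, 0.42 in MM16 and 0.34 in MM17. MM13 was nearly equal, with 1013.2 in Regenerating and 1010.3 in Non-regenerating neurons, and counts as a sixth higher rat by that margin alone. MM11 was lower, with 965.9 and 1023.8. The mean difference was 1.32-fold (log2 fold change 0.40, SE 0.13, 95% interval 0.11 to 0.68). Its exact sign-flip p was 0.0469, where 0.0156 is the smallest that 7 pairs can give. It did not pass after adjustment, at 0.141 over the 12 member tests and at 0.678 over all probe sets in limma. A fold change at least as large was seen in 3.79% of probe sets, and 7.39% were higher in at least 6 of 7 rats, a count in which MM13 is included for Jun. By an unadjusted limma p under 0.05, 4.26% were higher and 2.81% lower, and after adjustment 0.0107% and 0.00537%. Over 21 other settings the log2 fold change was 0.28 to 0.68 and never passed.

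Of the other Jun probe sets, the intermediate one had the same sign as the brightest in all 3 comparisons, and the dim one had the opposite sign. The intermediate probe set had signals of 136.2 to 305.1 in Regenerating, 103 to 323.8 in Non-regenerating and 124.9 to 195 in Traced samples. It differed by 0.11 within rats (SE 0.15, adjusted p = 0.88 in limma) and was higher in the Regenerating neurons of 4 of 7 rats. Against Traced samples it differed by 0.32 in Regenerating and by 0.21 in Non-regenerating samples, and neither passed. The dim probe set had signals of 16.7 to 52.7 in Regenerating, 17.7 to 78 in Non-regenerating and 33.7 to 69.3 in Traced samples, and stood at or below the 51.8th percentile on every array. It was lower in the Regenerating neurons of 6 of 7 rats, by a mean of -0.18 (SE 0.16, adjusted p = 0.793 in limma, exact sign-flip p = 0.0312, and 0.125 adjusted over the 12 tests). Over the 17 arrays, after the means of the MM and the MOON arrays were removed, the brightest Jun probe set correlated with the intermediate at r = 0.622 and with the dim at r = -0.308. In the probe annotation the intermediate and the dim probe set are assigned to Jun through the same expressed sequence tag, whereas the brightest is assigned through a RefSeq transcript. None of the 3 passed after adjustment.

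**Figure D3:**
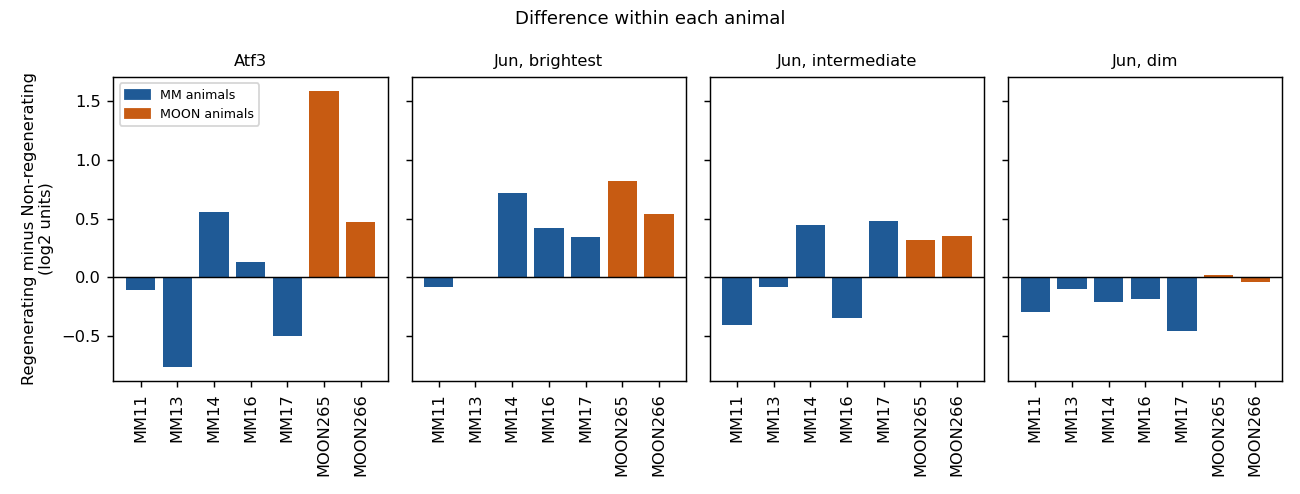
Regenerating minus Non-regenerating log2 signal (y axis) in each of the 7 rats, for Atf3 and the 3 Jun probe sets. Atf3 runs from -0.76 in MM13 to 1.59 in MOON265, the brightest Jun probe set is above 0 in 6 rats, with MM13 close to 0, and the dim one is below 0 in 6.

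The MM and the MOON rats were then compared in their within-rat differences. The comparison was chosen because earlier results of these same data had shown opposite signs of Atf3 between the names. Its p-values and interval for Atf3 are therefore not those of an independent test. Atf3 was higher in the Regenerating neurons of 2 of 2 MOON rats, by a mean of 1.03, and of 2 of 5 MM rats, with a mean of -0.14. The difference between the rats of both names was 1.17 (SE 0.38, 95% interval 0.37 to 1.97). It did not pass over all probe sets (adjusted p = 0.912 in limma, unadjusted p = 0.00719), of which 0.00537% did. Unadjusted, 2.12% of probe sets were past 0.05 as higher and 2.99% as lower. The exact permutation p was 0.0952, and 0.0476 is the smallest that 2 against 5 rats can give. In the Regenerating samples the MOON rats had 1058.5 and 1359.3 of Atf3 signal, against 136.4 to 1227.1 in the MM rats. In the Non-regenerating samples they had 441.5 and 757.9, against 123.3 to 830.8. For Jun the difference between MOON and MM rats was 0.40 (SE 0.29, adjusted p = 0.912 in limma, exact permutation p = 0.143), with means of 0.68 and 0.28. Against Traced samples among MM rats alone, Atf3 differed by 2.09 in Regenerating and by 2.22 in Non-regenerating samples, and Jun by 0.56 and 0.28. None of these 4 values passed in limma.

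Rat MM16 stood apart for Atf3 in both of its samples. Other genes were looked up in this rat after its Atf3 values were seen. Cxcl13, a chemokine gene that was at 34.5 to 60.1 in Traced samples, had 2524.9 in Regenerating and 2106.5 in Non-regenerating MM16 neurons, within the ranges of the other rats. Galanin (Gal), a neuropeptide of injured neurons, had 305.2 and 321.4 there, above the Traced highest value of 238.8. Sprr1a, a cornified envelope protein induced in injured sensory neurons, had 102.6 and 102.1, the lowest values of both axotomised groups and within the Traced range of 88 to 281.3. The brightest Jun probe set of MM16 was the lowest of the Regenerating samples, at 701, and at 518.4 lay between both MOON rats in the Non-regenerating samples.

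Markers of microglia and of astrocytes were also higher in the axotomised samples. Of the tested oligodendrocyte markers 2 of 5, and of the Schwann cell markers 1 of 3, were higher than in Traced samples in either axotomised group. So was 1 of 5 endothelial markers. Of the 10 general neuron markers 2 were higher in Non-regenerating and 1 in Regenerating than in Traced samples. The medians of their log2 fold changes were -0.09 and -0.23, next to -0.06 and -0.04 over all genes. For 5 fibroblast markers the counts were 2 and 3, and for 4 tested sensory ganglion neuron markers 0 and 1. Over all genes 43.9% were higher in Non-regenerating and 46.3% in Regenerating than in Traced samples. Of 12 microglia and macrophage markers 8 were bright enough to be tested, and all 8 were higher in Regenerating and in Non-regenerating than in Traced samples. Their summed signal over all 12 was 3253 to 6514 in Regenerating and 3401 to 5871 in Non-regenerating samples, against 2000 to 2245 in Traced samples. Laptm5, a lysosomal protein of haematopoietic cells, and C1qa, of the complement component C1q, rose in Regenerating against Traced samples (log2 fold changes 1.58 and 1.52, adjusted p = 0.0209 and 0.029 in limma), and Itgam was below 16 on all arrays. The 8 astrocyte markers summed to 11770 to 19700 in Regenerating and 11580 to 19300 in Non-regenerating samples, against 10780 to 11900 in Traced samples. All 8 were tested, with 7 of 8 higher in Regenerating and 8 of 8 higher in Non-regenerating than in Traced samples. Gfap, the intermediate filament of astrocytes, rose in Regenerating against Traced samples (log2 fold change 1.33, adjusted p = 0.026 in limma). Rat MM16, with low Atf3, had microglial sums of 4534 in Regenerating and 4442 in Non-regenerating neurons, in the middle of the axotomised range. Its astrocyte sums were 14630 and 11580, of which the Non-regenerating one was the lowest of the axotomised samples and within the Traced range. Its neuron sums were 24990 and 17400, and the Non-regenerating one was the lowest of all 17 arrays. The part of glial and neuronal RNA content in the difference of Atf3 was not tested. The summed signal of 5 spinal motor neuron markers was 657.5 to 2400 in Regenerating, 416.5 to 724.7 in Non-regenerating and 407.7 to 582.8 in Traced samples. Within rats 4 of 5 were higher in Regenerating neurons, each at an unadjusted limma p under 0.05, next to 4.26% of all probe sets. The log2 fold changes were 1.24 for Slc5a7, 1.15 for Chat, 0.90 for Prph and 0.77 for Slc18a3, and -0.02 for Isl1. None passed after adjustment. Against Traced samples the 5 markers did not move together. In Regenerating samples 4 of 5 were higher than in Traced samples, but Isl1 was lower (log2 fold change -1.395, adjusted p = 0.0708 in limma). Isl1 was also lower in Non-regenerating than in Traced samples (-1.371, adjusted p = 0.472). The part of motor neuron RNA content in the difference of Jun was not tested.

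The relatives and partners of both factors showed smaller differences than Atf3 against Traced samples. Of 28 AP-1 and CREB/ATF genes, 17 were tested, and none passed in any of the 3 comparisons in limma. At an unadjusted limma p under 0.05, the share of the 17 genes that was higher exceeded that of all probe sets in each comparison. The share that was lower was below that of all probe sets. These counts are of few genes, and the list was chosen with earlier results known. List genes were read at their brightest probe set, whereas the shares cover all tested probe sets, so the counts and shares are not strictly comparable. The same holds for the other lists. In Regenerating against Non-regenerating samples 2 genes were higher and 0 lower, next to 4.26% and 2.81% of all probe sets. In Non-regenerating against Traced samples they were 2 and 1, next to 2.68% and 7.61%. In Regenerating against Traced samples they were 4 and 1, next to 5.98% and 17.6%. Medians were 0.06, -0.06 and -0.04, next to 0.01, -0.06 and -0.04 over all 10431 genes tested. Fos, the AP-1 partner of c-Jun, had a mean signal of 742 in Non-regenerating and 370 in Traced samples (log2 fold change 0.98, SE 0.29, adjusted p = 0.472 in limma). In Regenerating samples its mean was 718 (0.93 against Traced, adjusted p = 0.0847). Cebpg, a C/EBP factor that dimerises with other leucine zipper proteins, differed from Traced samples by 0.66 in Non-regenerating and 0.73 in Regenerating samples. Junb, a relative of Jun, was dim, with means of 42.8 in Non-regenerating and 87.1 in Traced samples (SE of the log2 fold change 0.46, adjusted p = 0.472).

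Among these relatives, Creb3 and Crem stood first between the Regenerating and the Non-regenerating neurons. Creb3, a membrane-bound CREB-like factor, had means of 125.4 in Regenerating and 74.99 in Non-regenerating samples and was higher in 7 of 7 rats (0.66, SE 0.19, adjusted p = 0.651 in limma). Crem, a cAMP-responsive factor, had means of 497 and 340 and was higher in 6 of 7 (0.58, SE 0.18, adjusted p = 0.678). Both genes were picked by their small p in this comparison, so their counts of rats are no separate evidence. Of all probe sets 7.39% were higher in at least 6 of 7 rats. Against Traced samples, whose mean was 236, Crem differed by 1.10 in Regenerating neurons (SE 0.30, adjusted p = 0.0704). Mafg, a small Maf protein, differed by 0.22 within rats.

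Genes of the DLK and JNK pathway, which acts on c-Jun, showed small differences. Of 19 listed genes 9 were tested, and none passed in limma. Medians were -0.05 in Regenerating against Non-regenerating, 0.01 in Non-regenerating against Traced and -0.15 in Regenerating against Traced samples. Over all genes tested the medians were 0.01, -0.06 and -0.04. At an unadjusted p under 0.05 in limma, 0 genes stood out in the first of these, 0 in the second, and 1 higher and 1 lower in the third, where 5.98% of all probe sets were higher and 17.6% lower. They were Mycbp2, a ubiquitin ligase that limits DLK in worms and flies (0.60, SE 0.24, adjusted p = 0.139), and Mapk9, which encodes JNK2 (-0.52, SE 0.24, adjusted p = 0.201). Dusp1, a phosphatase of the kinases of this family, differed from Traced samples by 0.59 in Non-regenerating and 0.54 in Regenerating samples. Map3k1, a kinase upstream of JNK, and Fbxw7, a ubiquitin ligase that targets c-Jun, differed by -0.22 and 0.23 within rats.

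Injury genes that have been tied to Atf3 or Jun were mostly higher in the axotomised samples, but none passed in limma. Of 22 listed genes 14 were tested, with 12 of 14 higher in Non-regenerating than in Traced and 13 of 14 higher in Regenerating than in Traced samples. Over all genes 43.9% and 46.3% were higher. Medians were 0.38 and 0.45, against -0.06 and -0.04 over all genes, and the difference of Regenerating from Non-regenerating samples had a median of 0.10 with 11 of 14 higher, against 52.9% of all genes. Vip, a neuropeptide gene that rises in axotomised sensory and sympathetic neurons, averaged 1813 ± 698 in Regenerating and 1623 ± 1149 in Non-regenerating samples, against 452 ± 327 in Traced samples (SD). Its log2 fold changes against Traced samples were 2.18 (SE 0.46, adjusted p = 0.0682) in Regenerating and 1.76 (SE 0.64, adjusted p = 0.472) in Non-regenerating samples. Gal differed from Traced samples by 0.97 and 0.85 in the same order. Cd44, an adhesion receptor, differed by 0.84 in Non-regenerating against Traced samples.

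Within rats, 4 of these 14 genes were higher and 0 lower by limma's unadjusted p, next to 4.26% and 2.81% of all probe sets. Ecel1, an endopeptidase of injured neurons, differed by 0.67 (SE 0.27) and was higher in the Regenerating neurons of 5 of 7 rats. Sprr1a differed by 0.60 (SE 0.21) and Stat3, which carries cytokine signals, by 0.43 (SE 0.15), each higher in 6 of 7 rats. All 3 had an adjusted p of 0.678 over all probe sets. They too were picked by small p in this comparison, and 7.39% of all probe sets were higher in at least 6 of 7 rats. Ecel1 also differed by 1.46 between Regenerating and Traced samples (SE 0.45, adjusted p = 0.0847), with a mean of 30.3 in Traced samples, where a low signal makes the fold change depend on the offset of 16.

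**Figure D4:**
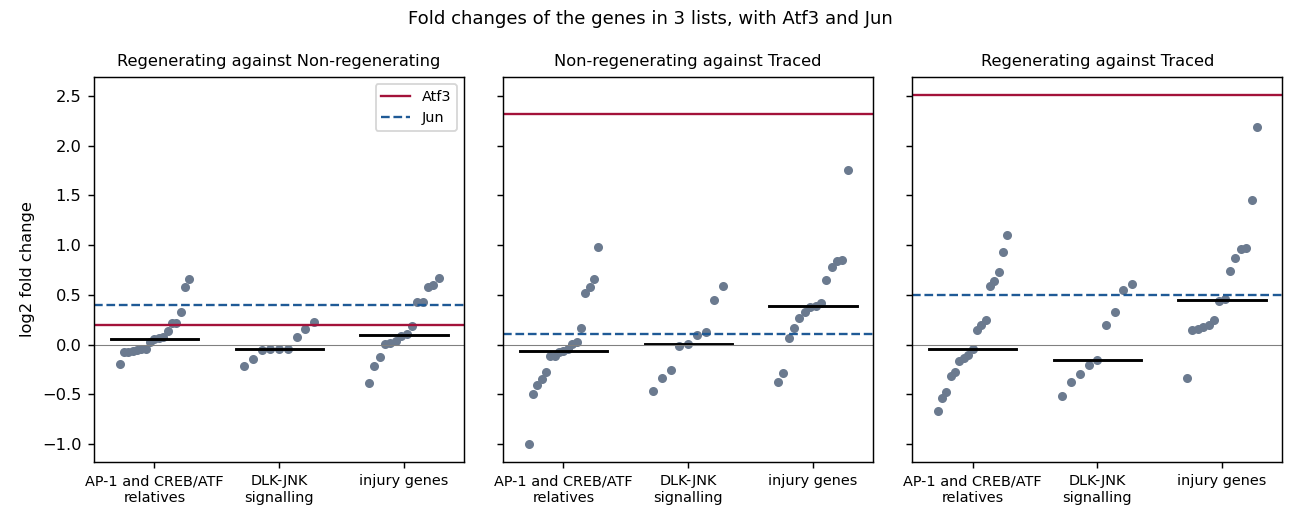
Log2 fold change (y axis) of each tested gene of the AP-1 and CREB/ATF, DLK-JNK and injury gene lists in the 3 comparisons, with bars at list medians and lines for Atf3 and the brightest Jun probe set. Atf3 lies above every listed gene in both comparisons with Traced samples, and Vip, at 1.76 and 2.18, comes closest.

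The genes whose levels most resembled Atf3 over the 17 arrays, after the means of the MM and of the MOON arrays were removed, were Tslp, Sema6a, Smad1, Stmn2 and Hs2st1. Their Pearson r with Atf3 was 0.887, 0.838, 0.837, 0.817 and 0.817, and the arrays share rats and scaling. Tslp, a cytokine gene, averaged 400 ± 269 in Regenerating and 251 ± 107 in Non-regenerating samples, against 51.8 ± 13.0 in Traced samples. Like Atf3 it was lowest in rat MM16, at 61.2 and 71.3, next to a highest Traced value of 62.6. Tslp was picked by its correlation with Atf3 on these same arrays, so this likeness is no separate evidence. Its log2 fold change was 2.26 in Regenerating against Traced (SE 0.60, adjusted p = 0.0684 in limma) and 1.86 in Non-regenerating against Traced samples (SE 0.40, adjusted p = 0.203). Sema6a, a transmembrane semaphorin, averaged 568.2, 461 and 243 in Regenerating, Non-regenerating and Traced samples. Smad1, a transcription factor of BMP signalling, averaged 996, 981 and 788. Stmn2 was matched at a dim probe set with means of 63.6, 56.8 and 51.7, and its r without removal of the MM and MOON means was 0.25. Hs2st1, a heparan sulfate sulfotransferase, had 0.423 without it, whereas Tslp and Sema6a had 0.907 and 0.871.

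Jun resembled other genes. Its closest were Klf7, a Kruppel-like factor of axon growth (r = 0.897), Utp6 (0.878), Tes, a focal adhesion protein (0.875), Anxa5, a calcium-dependent membrane-binding protein (0.872), and Ahnak2, a large scaffold protein (0.854). Klf7 averaged 686 ± 166 in Regenerating and 505 ± 107 in Non-regenerating samples, against 344 ± 93.9 in Traced samples. It was higher in the Regenerating neurons of 5 of 7 rats (log2 fold change 0.42, SE 0.15, adjusted p = 0.678 in limma). Ahnak2 averaged 1479 in Regenerating and 865 in Non-regenerating samples and was higher in 7 of 7 rats (0.73, SE 0.17, adjusted p = 0.523). Of all probe sets 7.39% were higher in at least 6 of 7 rats. Klf7 and Ahnak2 were picked by their correlation with Jun on these same arrays, so a difference like that of Jun is no separate evidence. Without removal of the MM and MOON means, Utp6 and Anxa5 had r of 0.249 and 0.286 with Jun, while Tes and Ahnak2 had 0.872 and 0.858. Between Atf3 and the brightest Jun probe set themselves, r was 0.695 with and 0.441 without that removal, over arrays that include MM14 and MM16, the highest and the lowest MM rats for both genes in Regenerating samples.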

How the data were processed

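The deposited table gave 1 linear signal intensity per probe set and array, which the authors obtained from GCOS, an Affymetrix program named without version in the submitters' processing notes. Per the labels' protocols, RNA of laser captured cells was amplified over several rounds before labelling. With 2% trimmed at either end, array means were 200 to 200.1, so no scaling was added. Signals were taken as log2(signal + 16), the offset being their 25th percentile. Leaving out 57 controls and the dimmest 40% (12417) kept 18625 probe sets.

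Comparisons used limma 3.58.1 in R 4.3.3 (lmFit, eBayes with trend), with Benjamini-Hochberg adjustment over all tested probe sets and a threshold of 0.05. Regenerating and Non-regenerating samples were fitted with the rat as a block, a pairing given in the sample titles. Deviations from group means correlated within rats at r = 0.345 to 0.709. Exact sign-flip and permutation tests were two-sided. A list gene was read at its brightest tested probe set. The text names the member probe sets, the 5 genes most correlated with each member, and up to 3 genes of smallest p per list and comparison. Genes of rat MM16 and the markers Laptm5, C1qa, Gfap and Itgam were picked after their values were seen. The members, lists and tests were chosen with earlier results of these data known. The limma step was tested on simulated data. Alternatives left out arrays in turn, restricted or adjusted for the MM and MOON names or 3 prime bias, and changed the scaling, offset, filter, block, trend or array weights. Python 3.11.15, numpy 2.4.6, pandas 2.3.3 and matplotlib 3.10.9 were used.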

Additional observations from a re-analysis of the deposited data

Results flagged for a closer look

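Among Non-regenerating samples, the Atf3 signal of rat MM16 (123.3) lay far below the other 6 (441.5 to 830.8). On the log2 scale its gap to the nearest sample was 0.659 of the whole range of the 7 samples, above the 95% critical value for such a gap. Chance flags about 1 in 20 groups, and 12 sets of 7 values of Atf3 and Jun were examined. The Regenerating sample of the same rat was also the lowest of its group, at 136.4, but the next value was 330.7 and its gap was within the limit, at 0.374 of the range.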

How the results depend on the processing

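Of 23 other settings, Atf3 against Traced samples kept its direction in all, with 1.79 to 2.67 in Non-regenerating and 1.99 to 2.90 in Regenerating samples. It passed with array weights (2.39 and 1.99) and, in Regenerating samples, with an offset of 64 (2.06) and each array centred on its median (2.90). Left-out arrays gave 1.79 to 2.67 and 1.99 to 2.86. Within rats, Atf3 turned to -0.14 among MM rats alone and ranged from -0.036 to 0.36 with a rat left out. Without the replicate block, Atf3 and Jun differed by 0.20 and 0.40 and still did not pass. Jun in Non-regenerating against Traced samples turned to -0.15 without the arrays that stood apart, and ranged from -0.14 to 0.26 with an array left out. The dim Jun probe set turned there to 0.033 after quantile normalization and 0.045 after centring.

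Atf3 minus Jun against Traced samples fell short of the threshold with an offset of 64 (1.77 in Non-regenerating and 1.58 in Regenerating samples), and ranged from 1.59 to 2.63 and from 1.39 to 2.43 with an array left out, where fewer samples raise the smallest p. Within rats it was 0.088 with the mean of all Jun probe sets, and -0.36 to -0.094 with a rat left out, passing without MOON265 (-0.36). Where a cause is not named, it was not tested.

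After centring, all tested probe sets had a median of 0.24 in Non-regenerating and 0.26 in Regenerating against Traced samples, where the deposited scale gave -0.12 and -0.13. Relative to it, Atf3 stood at 2.43 and 2.64. Probe sets past the threshold numbered 3 within rats (0 to 4 over other settings), 8 in Non-regenerating against Traced samples (2 to 37, and 2440 with array weights) and 40 in Regenerating against Traced samples (1 to 1504, and 3131 with array weights). In the last comparison 29 were higher and 11 lower as deposited, 279 and 50 after centring, 144 and 75 after quantile normalization, and 860 and 2271 with array weights. With weights, 553 were higher and 1887 lower in Non-regenerating against Traced samples, against 8 and 0. Leaving out MM17 gave 37 in Non-regenerating and 1504 in Regenerating against Traced samples, and leaving out 1 Traced array gave 2 to 6 and 1 to 7.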
